A study of Mus musculus with 20 samples.

Results

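Chemokines are small secreted proteins that steer leukocytes, and the genes described here are the mouse chemokines and the receptors that read them. Members were taken by symbol from both deposited tables: the numbered Ccl and Cxcl genes, Cx3cl1 and Xcl1 as ligands, and the numbered Ccr and Cxcr genes, Cx3cr1 and Xcr1 as receptors. Of the 50559 genes in each table, 57 were members, 39 ligands and 18 receptors. Gene expression was compared in 20 mouse libraries, 5 for each of 3 tumor groups (Aldafermin+MYC, FGF19+MYC and sgTrp53+MYC) and 5 for healthy livers. FGF19 is the human ileal hormone that restrains bile acid synthesis in hepatocytes, and Aldafermin is an engineered analog of it. All mice were labelled wild type C57Bl6J. According to the methods they were female C57BL/6J mice of 6 to 8 weeks at hydrodynamic gene transfer, in which plasmids pushed into the tail vein transfect hepatocytes, and the Sleeping Beauty transposase inserts the transgenes. MYC expression was driven by the EF1a promoter in all 3 tumor groups, with an FGF19 or Aldafermin expression plasmid in 2 of them and a CRISPR plasmid with a guide against Trp53 in the other. The livers were labelled non treated, whereas the methods describe control mice that received a fluorescent protein plasmid. The condition of the sgTrp53+MYC tumors came from the sample titles, since their treatment field reads none.

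Most chemokines act on G protein coupled receptors, and the ligands fall into families by the spacing of their first cysteines. Inflammatory chemokines are made by macrophages, stromal cells and hepatocytes after cytokine signals and draw in monocytes, neutrophils or T cells, whereas homeostatic ones such as CXCL12 are made steadily and hold cells in place. In the liver, CXCL12 comes mainly from sinusoidal and stromal cells and its receptor CXCR4 sits on most leukocytes. The CCR2 ligands recruit monocytes, CXCR2 ligands recruit neutrophils, and the CXCR3 ligands CXCL9, CXCL10 and CXCL11 attract activated T cells and NK cells.

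The upstream sequences of 4 ligands are shown because they lie in a pair of clusters on chromosome 5 and their transcripts went in different directions: in Aldafermin+MYC and FGF19+MYC tumors Cxcl1, Cxcl2 and Cxcl10 were higher than in livers and Cxcl9 was lower. Each runs from 250 bases before to 50 after the gene start, on the gene's strand, and comes from RefSeq on GRCm38.p6: Cxcl1 at chr5:90890995-90891294 (+), Cxcl2 at chr5:90903649-90903948 (+), Cxcl9 at chr5:92328030-92328329 (-) and Cxcl10 at chr5:92348840-92349139 (-). Capitals mark matches on either strand to a κB form, which NF-κB binds (GGGA, any 2 bases, TTCC), or to an interferon response form (GAAA, any 2 bases, GAAA).
Cxcl1: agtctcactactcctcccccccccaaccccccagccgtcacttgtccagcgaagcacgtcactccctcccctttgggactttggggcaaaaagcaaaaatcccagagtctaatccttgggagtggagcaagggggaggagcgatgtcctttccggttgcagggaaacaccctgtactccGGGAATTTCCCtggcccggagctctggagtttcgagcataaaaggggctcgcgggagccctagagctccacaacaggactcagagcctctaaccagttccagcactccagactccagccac
Cxcl2: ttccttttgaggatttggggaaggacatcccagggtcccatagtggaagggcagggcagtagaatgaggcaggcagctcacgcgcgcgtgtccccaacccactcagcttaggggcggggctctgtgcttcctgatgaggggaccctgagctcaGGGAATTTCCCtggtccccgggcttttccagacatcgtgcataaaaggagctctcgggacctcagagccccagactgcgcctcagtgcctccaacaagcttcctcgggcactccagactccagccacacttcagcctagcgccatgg
Cxcl9: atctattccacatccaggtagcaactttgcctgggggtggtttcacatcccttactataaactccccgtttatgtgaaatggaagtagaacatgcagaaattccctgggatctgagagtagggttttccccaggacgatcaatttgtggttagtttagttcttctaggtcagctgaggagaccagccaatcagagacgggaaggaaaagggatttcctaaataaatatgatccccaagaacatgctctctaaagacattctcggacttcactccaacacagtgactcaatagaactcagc
Cxcl10: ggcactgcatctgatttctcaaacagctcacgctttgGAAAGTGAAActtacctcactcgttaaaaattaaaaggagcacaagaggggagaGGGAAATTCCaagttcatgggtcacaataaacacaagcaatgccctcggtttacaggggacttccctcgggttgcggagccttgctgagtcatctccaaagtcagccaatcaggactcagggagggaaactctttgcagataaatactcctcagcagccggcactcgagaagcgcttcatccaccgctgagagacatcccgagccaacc
In Cxcl1 and Cxcl2 the capitals hold 2 overlapping κB matches, 1 on each strand, with the first base at -71 and -97 from the start. Cxcl10 had a κB match at -159 and an interferon form at -213, whereas the Cxcl9 window held neither. Of 32851 promoters of this length, 1.47% held the κB form and 3.44% the interferon form. Promoter entries were at hand for 42 of the 57 members, and the κB form was found in those of Ccl1, Ccr3, Cxcl1, Cxcl2, Cxcl3 and Cxcl10. A match describes letters only and is not evidence of binding.

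Depth ranged from 18004977 to 66354724 reads counted on genes per library, of which 3136 to 25702 fell on members. The sgTrp53+MYC libraries form a table of their own. In it 5.34 to 6.82% of reads were not aligned, against 15.3 to 34.0% in the other 15 libraries. Reads labelled ambiguous between genes made up 11.1 to 14.6% in it and 3.03 to 6.3% in the other 15. A difference between tables and a difference between these tumors and the rest thus cannot be told apart. Trp53 stood at 18.7 to 79.9 CPM (reads scaled to library size, with TMM factors) in sgTrp53+MYC tumors, at 90.9 to 176 CPM in Aldafermin+MYC, at 109.8 to 155 CPM in FGF19+MYC tumors and at 28.8 to 36.4 CPM in livers, although a guide edits DNA and the transcript level alone does not show the edit. Summed hepatocyte markers lay at 180800 to 229300 CPM in livers and 3836 to 28380 CPM in tumors. The third Aldafermin+MYC library stood apart: it was the highest of its group in 23 of the 28 members that could be tested, and in 18 of them it exceeded 3 times the median of the other 4. Its markers of macrophages summed to 949 CPM (342 to 585 in the other 4) and those of stellate cells and fibroblasts to 1044 CPM (123 to 392), of which Col1a1 made up 871 CPM. Values without it are given where they matter, and the part of these cells in the results was not tested. In bulk tissue, fewer cells of a type and less RNA per cell cannot be told apart.

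A gene was tested where at least 5 libraries reached 1 CPM, here scaled by total counts without TMM factors, which 28 members did (22 ligands and 6 receptors). On that scale livers read lower, and tumors mostly higher, than on the TMM scale of the values given in the text. Among them, 15 had a library at 1 CPM or more in all 4 groups and 10 had no such liver library. Those without one entered only through the tumors, which favors a difference from liver but does not force a call, as Ccl22 and Ccr7 show below. The other 29 members were Ccl1, Ccl8, Ccl17, Ccl19, Ccl20, Ccl21a, Ccl21b, Ccl21d, Ccl26, Ccl27b, Ccl28, Cxcl3, Cxcl5, Cxcl13, Cxcl15, Cxcl17, Xcl1, Ccr3, Ccr4, Ccr6, Ccr8, Ccr9, Ccr10, Cxcr1, Cxcr2, Cxcr3, Cxcr5, Cxcr6 and Xcr1. Of these, 8 reached 1 CPM on the filter's scale in some library, and Ccl21b, Ccl21d, Ccl26 and Ccl27b never passed 3 counts in any. Ccl21 and Ccl27 copies are nearly identical, so that reads between them are uncertain.

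The make-up of the chemokine transcripts differed between livers and tumors. Per kilobase of transcript, Cxcl12 made up 47.0% ± 6.93 (SD, n = 5) of ligand transcripts in livers, 13.4% ± 3.92 in sgTrp53+MYC, 6.01% ± 3.24 in Aldafermin+MYC and 5.47% ± 2.15 in FGF19+MYC tumors. Cxcl10 made up 2.17% ± 0.948 in livers, against 44.6% ± 10.02 in FGF19+MYC, 30.4% ± 6.64 in Aldafermin+MYC and 19.6% ± 14.1 in sgTrp53+MYC tumors. No tumor library reached the lowest liver share of Cxcl12, 37.1%, whereas the lowest sgTrp53+MYC share of Cxcl10, 2.50%, lay inside the liver range. Next to Cxcl12, at 89.2 CPM per kb, livers held most of Ccl9 (42.3) and Ccl27a (12.99). In the tumors Cxcl10 had the highest mean per kilobase, at 52.9 CPM per kb ± 59.5 (SD, n = 5) in Aldafermin+MYC, 50.9 ± 15.98 in FGF19+MYC and 20.2 ± 20.2 in sgTrp53+MYC. It was the first ligand in 4, 5 and 2 of the 5 libraries. Without the third Aldafermin+MYC library its mean there was 26.3 CPM per kb ± 3.72 (SD, n = 4). Without the third sgTrp53+MYC library it was 11.6 ± 6.67, beside 13.7 ± 8.73 for Ccl6 and 11.9 ± 4.08 for Cxcl12, which do not differ beyond their spread. Summed over all ligands the level was 190.4 CPM per kb ± 15.4 (SD, n = 5) in livers, 162 ± 152 in Aldafermin+MYC, 114 ± 18.2 in FGF19+MYC and 102 ± 36.8 in sgTrp53+MYC tumors. Without the third Aldafermin+MYC library the sum was 94.6 ± 23.7 (SD, n = 4). These shares and sums are descriptions and were not tested. Among receptors Cxcr4 had the highest level per kilobase in all 4 groups, from 0.892 CPM per kb in livers to 3.96 in Aldafermin+MYC tumors.

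**Figure D1:**
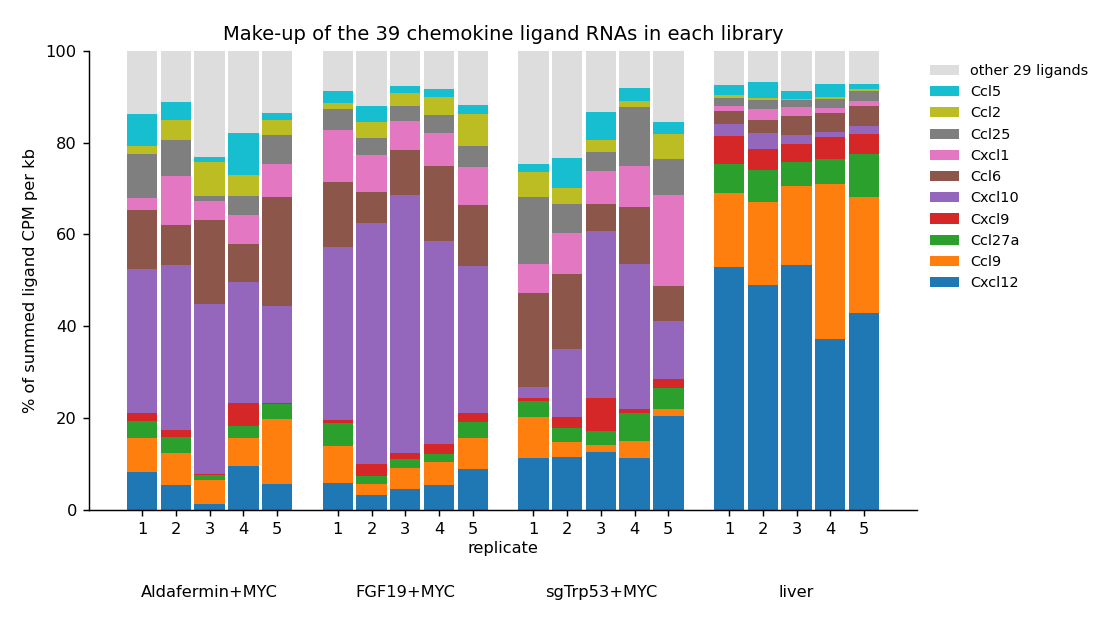
Stacked bars give the share of 10 ligands, and of the other 29 in light grey, in the summed ligand CPM per kb (percent, vertical axis) of each of the 20 libraries. By group mean Cxcl12 took 47.0% in livers and 5.47 to 13.4% in tumors, and Cxcl10 took 2.17% in livers and 19.6 to 44.6% in tumors.

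Against livers, both sets of tumors had higher transcripts of the CCR2 ligands Ccl2, Ccl7 and Ccl12, the CXCR2 ligands Cxcl1 and Cxcl2, and Ccr1 and Cxcr4, and lower transcripts of Cxcl12, Ccl9 and Ccl27a. For the Aldafermin+MYC and FGF19+MYC tumors, the fitted means of both groups were averaged with equal weight on the log scale. There edgeR's quasi-likelihood test called 19 of the 28 tested members at an adjusted p of 0.05, against 73.7% of all 14333 genes. It called 12 of them higher (39.2% of all genes) and 7 lower (34.5%). In sgTrp53+MYC tumors it called 18, against 69.9% of all genes, with 12 higher (36.9%) and 6 lower (33%). The share of members called was thus close to that of all genes. The median log2 fold change of tested members was 0.76 in the first comparison and 0.87 in the second, against 0.1 and 0.07 over all genes. Of the 12 higher members, 8 in either comparison had no liver library at 1 CPM in the filter, and among the 10 members left at 5 CPM in 5 libraries the medians were -0.02 and 0.14, against 0.15 over all genes in both. Scaled by total counts, an alternative added after the data were seen, the first comparison had 17 higher and 6 lower members, against 79.5% of all genes called and a median of 0.94 over all genes. Without the filter on low counts 56 members entered the fit, of which 27 were called in the first comparison (44% of all genes) and 24 in the second (40.7%). In the first, 7 members that the filter had left out were called (Ccl8, Ccr3 and Cxcr1 as higher and Cxcl13, Cxcl15, Cxcr5 and Cxcr6 as lower), and Ccl25 was called at 0.74 (adjusted p = 0.0311, quasi-likelihood test). The call of Cxcl15 rested on 5 counts in the fifth liver, with no count in the other livers or in these tumors. Both comparisons share the 5 livers.

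**Figure D2:**
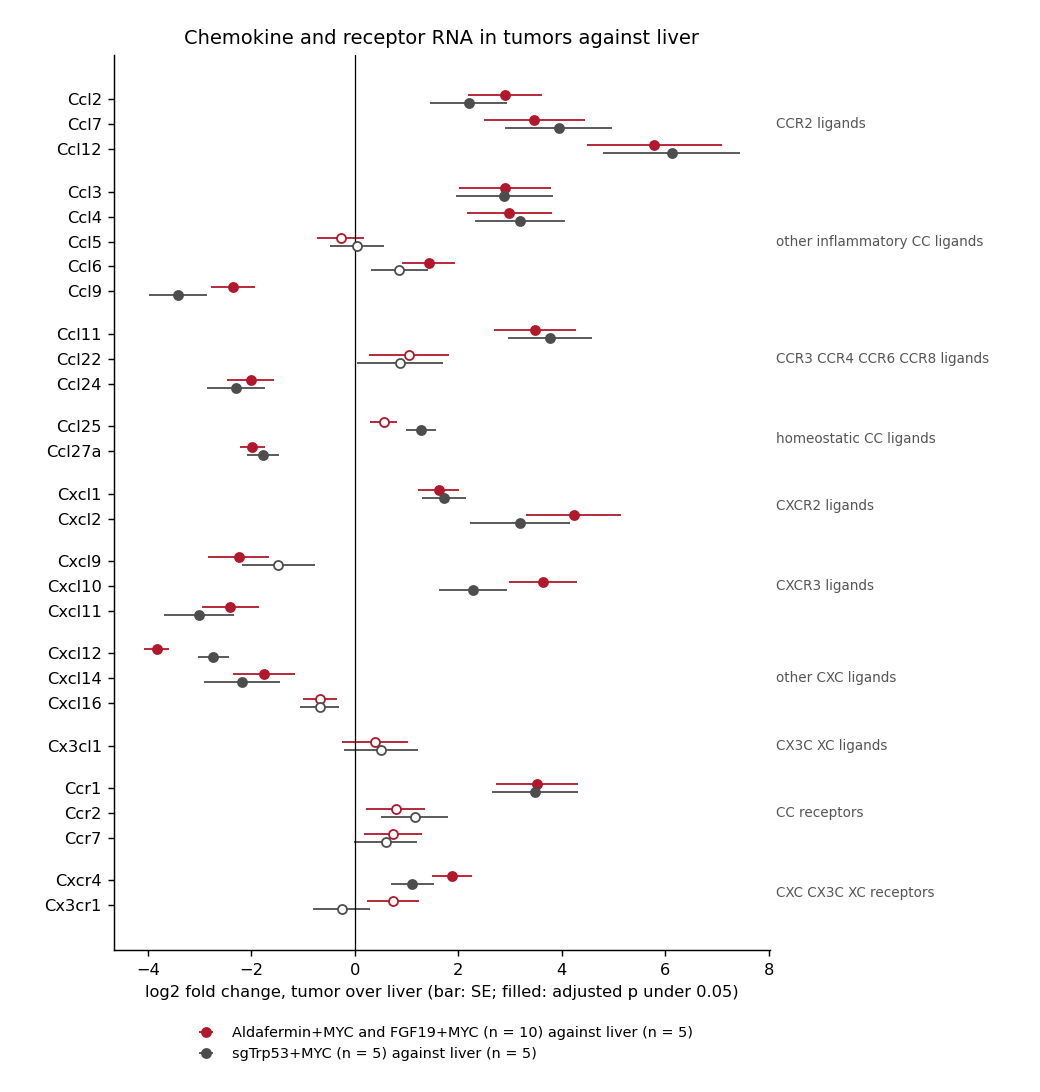
Log2 fold change over livers (points; bars are the SE, filled points have an adjusted p under 0.05) for 27 of the 28 tested members in the Aldafermin+MYC and FGF19+MYC tumors together and in sgTrp53+MYC tumors, grouped by role. Cxcl12 stood at -3.83 and -2.74, and Ccl11 at 3.49 and 3.77.

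Cxcl12 (chr6:117144945-117158328, GRCm39), the ligand that retains CXCR4-bearing cells, had the smallest adjusted p of the members in all comparisons but that of Aldafermin+MYC with FGF19+MYC tumors. In livers it stood at 555, 561, 515, 389 and 508 CPM in replicates 1 to 5. In Aldafermin+MYC tumors the values were 32.0, 26.4, 27.4, 54.5 and 40.0 CPM, in FGF19+MYC tumors 34.4, 24.1, 28.3, 26.6 and 61.2 CPM, and in sgTrp53+MYC tumors 75.1, 70.4, 108, 35.3 and 90.0 CPM. Every tumor lay far under the lowest liver, and 4 of the 5 sgTrp53+MYC tumors lay above all other tumors. Cxcl12 fell by 3.83 on the log2 scale (SE 0.24, adjusted p = 3.64e-11 by the quasi-likelihood test) in Aldafermin+MYC and FGF19+MYC tumors, and by 2.74 (SE 0.30, adjusted p = 1.35e-07) in sgTrp53+MYC tumors. Markers of endothelial cells summed to 267 to 422 CPM in livers and 63.8 to 196 CPM in tumors. Those of stellate cells and fibroblasts summed to 343 to 474 and 72.8 to 1044 CPM. Of these 8 stellate cell and fibroblast markers, Col1a1 was called higher in both comparisons with livers. Lrat, Dcn, Lum and Reln were called lower in both, and Rgs5 in Aldafermin+MYC and FGF19+MYC tumors only. The part of endothelial and stellate cells and fibroblasts in the lower Cxcl12 was not tested.

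Cxcr4 (chr1:128515936-128520044), its receptor, went the other way. It stood at 1.51, 0.696, 1.28, 1.78 and 2.87 CPM in livers, 3.11, 4.14, 14.0, 7.19 and 7.60 CPM in Aldafermin+MYC, 5.58, 7.10, 3.86, 2.99 and 5.34 CPM in FGF19+MYC and 4.45, 3.27, 5.03, 1.78 and 2.99 CPM in sgTrp53+MYC tumors. All Aldafermin+MYC and FGF19+MYC tumors were above all livers, and sgTrp53+MYC tumors overlapped them. The log2 fold change was 1.88 (SE 0.39, adjusted p = 0.00025, quasi-likelihood test), and 1.69 without the third Aldafermin+MYC library. In sgTrp53+MYC tumors it was 1.11 (SE 0.42, adjusted p = 0.0238), a call that some alternatives lost. Ackr3, the atypical receptor that also takes up CXCL12, rose by 1.47 and 0.96 on the log2 scale in the same comparisons.

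The 3 CXCR3 ligands lie within 44.1 kb (chr5:92469206-92513344) and moved apart. Cxcl10 stood at 5.45, 7.74, 3.89, 2.05 and 3.74 CPM in livers, 23.8, 33.8, 175, 29.2 and 29.02 CPM in Aldafermin+MYC, 43.9, 79.6, 70.4, 43.4 and 43.1 CPM in FGF19+MYC and 3.23, 17.7, 60.5, 19.2 and 10.7 CPM in sgTrp53+MYC tumors. The first 2 tumor groups lay wholly above livers, while 1 sgTrp53+MYC tumor lay inside the liver range. Cxcl10 rose by 3.63 (SE 0.66, adjusted p = 5.86e-05 by the quasi-likelihood test) in Aldafermin+MYC and FGF19+MYC tumors, by 3.13 without the third Aldafermin+MYC library, and by 2.28 (SE 0.66, adjusted p = 0.00468) in sgTrp53+MYC tumors. Cxcl9 was highest in livers, at 32.1, 26.4, 19.2, 25.5 and 26.9 CPM. The Aldafermin+MYC tumors held 1.40 to 14.7 CPM and the FGF19+MYC tumors 1.95 to 10.01 CPM, all under the livers, whereas sgTrp53+MYC tumors ran from 1.54 to 31.4 CPM and overlapped them. Its log2 fold change was -2.25 (SE 0.58, adjusted p = 0.00181, quasi-likelihood test) in the first comparison and -1.48 (SE 0.71, adjusted p = 0.0692) in the second. Cxcl11 stood at 1.36, 2.35, 1.68, 1.16 and 1.83 CPM in livers, 0 to 0.240 CPM in Aldafermin+MYC, 0.112, 0.291, 1.57, 0.910 and 0.598 CPM in FGF19+MYC and 0.0307 to 0.461 CPM in sgTrp53+MYC tumors. It fell by 2.41 (SE 0.56, adjusted p = 0.000667) and 3.01 (SE 0.69, adjusted p = 0.000648) on the log2 scale, with overlap between livers and FGF19+MYC tumors only. Their receptor Cxcr3, found on activated T cells, was not tested and stood at 0.820 to 1.61 CPM in livers, 0.364 to 1.23 in Aldafermin+MYC, 0 to 0.583 in FGF19+MYC and 0.122 to 2.18 in sgTrp53+MYC tumors. Cxcl11 shares 41.7% and Cxcl10 5.9% of its exon bases with a gene on the opposite strand, and the strand setting of the counting is not given in the sources used here. In the filter Cxcl11 reached 1 CPM in 3 livers and 2 FGF19+MYC libraries only. These are the groups where it is high, which favors a fall from livers.

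**Figure D3:**
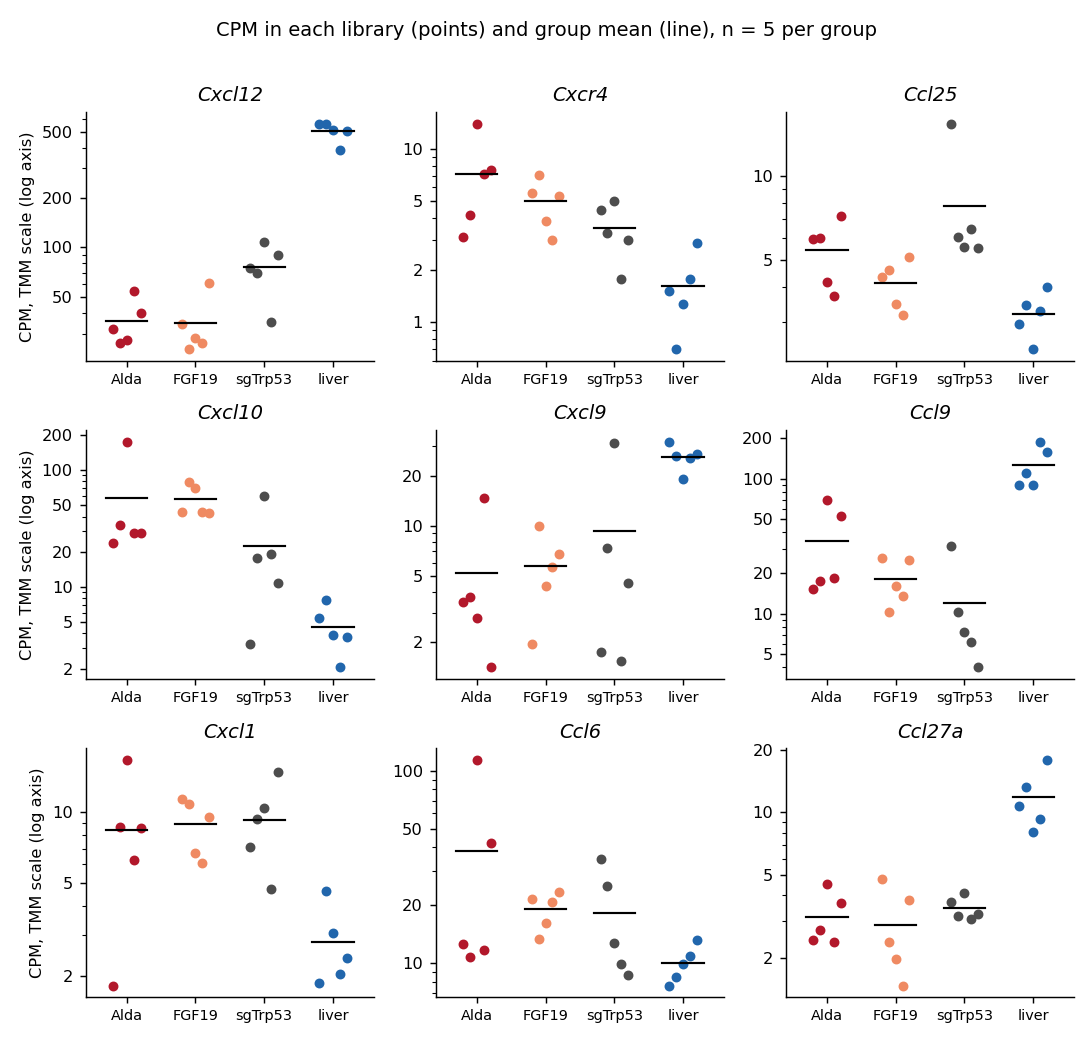
CPM (log axis) of Cxcl12, Cxcr4, Ccl25, Cxcl10, Cxcl9, Ccl9, Cxcl1, Ccl6 and Ccl27a in each of the 20 libraries, with 5 points and a line at the mean for each group. Cxcl12 stood at 389 to 561 CPM in livers and 24.1 to 108 CPM in tumors, and the third Aldafermin+MYC library held 175 CPM of Cxcl10.

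The monocyte-attracting CCR2 ligands Ccl2, Ccl7 and Ccl12, with the eosinophil attractant Ccl11, lie in a cluster of 6 ligands at chr11:81926397-82196516, and all 4 tested genes of it rose in both comparisons. None of the 4 had a liver library at 1 CPM in the filter, so that they entered through tumors and the filter favored their rise. Ccl2 stood at 0.353 to 1.00 CPM in livers, 0.947, 3.05, 26.3, 3.77 and 3.26 CPM in Aldafermin+MYC, 1.23 to 6.96 CPM in FGF19+MYC and 0.558 to 5.27 CPM in sgTrp53+MYC tumors. FGF19+MYC tumors alone did not overlap livers. The log2 fold change was 2.90 (SE 0.72, adjusted p = 0.00127, quasi-likelihood test) in Aldafermin+MYC and FGF19+MYC tumors, 2.18 without the third Aldafermin+MYC library, and 2.20 (adjusted p = 0.0136) in sgTrp53+MYC tumors. Ccl7 rose by 3.47 and 3.94, with 2.46 for the first without that library. Ccl12 stood at 0.243, 0.645, 6.43, 0.923 and 1.43 CPM in Aldafermin+MYC, 0.726, 0.218, 0.269, 0.0294 and 0.141 CPM in FGF19+MYC and 1.75, 1.33, 0.773, 0.218 and 0.414 CPM in sgTrp53+MYC tumors. Since 4 livers had no count of Ccl12 and the other had 1, its fold change depends on the prior count, and only its adjusted p is given (0.000506 and 0.000389). Ccl8, a further ligand of this cluster, was not tested and reached 17.4 CPM in the third Aldafermin+MYC library against 0 to 4.33 CPM elsewhere. The receptor Ccr2 was not called in either comparison, with log2 fold changes of 0.79 (adjusted p = 0.223) and 1.16 (adjusted p = 0.116) and values of 0.777, 1.07, 8.11, 3.96 and 1.07 CPM in Aldafermin+MYC, 0.112, 2.77, 1.12, 1.35 and 2.14 CPM in FGF19+MYC, 2.11, 3.54, 4.32, 1.36 and 2.38 CPM in sgTrp53+MYC tumors and 1.58, 1.54, 1.15, 0.888 and 0.996 CPM in livers. Monocyte markers, a list that includes Ccr2 itself, summed to 10.8 to 15.7 CPM in livers and 24.6 to 164 CPM in tumors. Plac8 alone held the larger part of the sum in every library, with 8.57 to 12.99 CPM in livers and 18.07 to 118.7 CPM in tumors. Ly6c2, Chil3 and Plac8 were called higher in both comparisons and S100a4 in the second only. The part of monocytes in these results was not tested.

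Ccl11 (chr11:81948618-81953781) stood at 1.53, 1.12, 2.22, 0.846 and 1.46 CPM in Aldafermin+MYC tumors and at 0.362, 0.994, 0.750, 0.191 and 1.10 CPM in sgTrp53+MYC tumors. In FGF19+MYC tumors it stood at 0.167, 0.546, 0.0898, 0.0294 and 0.246 CPM, and 3 livers had no count while the others held 0.0442 and 0.159 CPM. Aldafermin+MYC and sgTrp53+MYC tumors lay wholly above livers. The log2 fold change was 3.49 (SE 0.80, adjusted p = 0.000593, quasi-likelihood test) in the first comparison and 3.77 (adjusted p = 0.000429) in the second. Ccl24, a further eosinophil attractant, went down by -2.02 and -2.31, from 1.81 to 3.35 CPM in livers. It stood at 0.194 to 1.97 CPM in Aldafermin+MYC, 0.167 to 0.808 CPM in FGF19+MYC and 0.276 to 0.896 CPM in sgTrp53+MYC tumors. The third Aldafermin+MYC library thus lay inside the liver range. In the filter 5 livers reached 1 CPM, against 1, 0 and 1 libraries of these tumor groups, which favors a fall. The receptor of Ccl11 and Ccl24, Ccr3, was not tested and reached 2.42 CPM in Aldafermin+MYC tumors against at most 0.273 CPM in livers.

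A further 5 CC ligands lie in a second cluster (chr11:83416602-83555509), where Ccl9 fell while its neighbour Ccl6 did not. Ccl9 (chr11:83463745-83473161), a macrophage and dendritic cell attractant of rodents, stood at 90.0, 111, 89.1, 188 and 158 CPM in livers, 15.1, 17.4, 69.4, 18.3 and 52.8 CPM in Aldafermin+MYC, 25.9, 10.2, 15.98, 13.4 and 24.8 CPM in FGF19+MYC and 31.7, 10.3, 7.34, 6.17 and 3.99 CPM in sgTrp53+MYC tumors. No tumor reached the lowest liver. It fell by 2.35 on the log2 scale (adjusted p = 5.66e-05, quasi-likelihood test) in Aldafermin+MYC and FGF19+MYC tumors and by 3.42 (SE 0.56, adjusted p = 2.16e-05) in sgTrp53+MYC tumors. Ccl6 stood at 7.68 to 13.2 CPM in livers, 10.8 to 114 CPM in Aldafermin+MYC, 13.3 to 23.5 CPM in FGF19+MYC and 8.67 to 34.7 CPM in sgTrp53+MYC tumors. Its log2 fold change was 1.43 (SE 0.51, adjusted p = 0.016, quasi-likelihood test), or 0.93 without the third Aldafermin+MYC library, and in sgTrp53+MYC tumors 0.86 (adjusted p = 0.169). The macrophage products Ccl3 and Ccl4 rose by 2.90 and 2.99 in the first comparison and by 2.89 and 3.19 in the second, from at most 0.279 CPM in livers. Ccl5, a T cell product, was not called (-0.27 and 0.05). The receptor Ccr1, carried by neutrophils and monocytes, stood at 0.559, 1.04, 9.12, 0.462 and 6.51 CPM in Aldafermin+MYC, 0.893, 0.546, 0.853, 1.26 and 0.879 CPM in FGF19+MYC, 2.60, 2.94, 1.05, 0.681 and 1.34 CPM in sgTrp53+MYC tumors and 0.0442 to 0.359 CPM in livers. Every tumor was above every liver, with log2 fold changes of 3.53 (SE 0.79, adjusted p = 0.000526, quasi-likelihood test) and 3.48 (adjusted p = 0.00101). Ccr1, Ccl3 and Ccl4 had no liver library at 1 CPM in the filter. They entered through tumors, where they are high, which favors a difference from liver. Markers of Kupffer cells and other macrophages summed to 513 to 833 CPM in livers and 342 to 949 in Aldafermin+MYC tumors. The sums were 424 to 704 in FGF19+MYC and 173 to 280 in sgTrp53+MYC tumors. Of the 10 markers, Cd68 was called higher in both comparisons. Clec4f, Csf1r, Timd4 and Vsig4 were called lower in the first comparison, and all 9 markers other than Cd68 in the second. The part of macrophages in these results was not tested.

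The neutrophil attractants Cxcl1 and Cxcl2, whose upstream windows are printed above, were higher in tumors. Cxcl1 stood at 1.86 to 4.62 CPM in livers, 1.82, 8.66, 16.8, 6.23 and 8.59 CPM in Aldafermin+MYC, 6.08 to 11.4 CPM in FGF19+MYC and 4.70 to 14.8 CPM in sgTrp53+MYC tumors, so that 1 Aldafermin+MYC tumor lay under the livers and all other tumors above them. It rose by 1.62 (SE 0.40, adjusted p = 0.00111, quasi-likelihood test) and 1.72 (SE 0.43, adjusted p = 0.00158). Cxcl2 stood at 0.215, 0.110, 0, 0 and 0.0398 CPM in livers, 0.583, 0.521, 1.87, 0.154 and 3.31 CPM in Aldafermin+MYC, 3.63, 1.68, 0.494, 0.675 and 0.633 CPM in FGF19+MYC and 0.165, 1.05, 0.588, 0.586 and 0.890 CPM in sgTrp53+MYC tumors. Its log2 fold changes were 4.23 (SE 0.92, adjusted p = 0.000393, quasi-likelihood test) and 3.20 (adjusted p = 0.00631), against at most 3 counts in any liver. Cxcl2 had no liver library at 1 CPM in the filter and entered through tumors, which favors a difference from liver. The receptor of Cxcl1 and Cxcl2, Cxcr2, was not tested, and apart from 1 sgTrp53+MYC tumor at 5.47 CPM it stood at 0 to 1.34 CPM. Neutrophil markers summed to 3.58 to 5.50 CPM in livers and 2.79 to 27.7 CPM in tumors.

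Among the homeostatic ligands, Ccl27a fell and Ccl25 did not. Ccl27a (chr4:41769467-41774639), a T cell attractant best known in skin, stood at 10.8, 13.2, 8.04, 9.29 and 18.0 CPM in livers, 2.43, 2.73, 4.54, 2.38 and 3.65 CPM in Aldafermin+MYC, 4.80, 2.37, 1.98, 1.47 and 3.80 CPM in FGF19+MYC and 3.72, 3.16, 4.08, 3.08 and 3.24 CPM in sgTrp53+MYC tumors. No tumor reached the lowest liver, and it fell by 1.98 (SE 0.25, adjusted p = 6.72e-07, quasi-likelihood test) and 1.78 (SE 0.31, adjusted p = 3.81e-05) on the log2 scale. Ccl25 (chr8:4374661-4540760), which guides thymocytes and gut T cells through CCR9, stood at 2.94, 3.45, 2.38, 3.28 and 3.98 CPM in livers and 15.4, 6.03, 5.55, 6.47 and 5.52 CPM in sgTrp53+MYC tumors. In Aldafermin+MYC tumors it stood at 5.95, 6.003, 4.16, 3.69 and 7.18 CPM and in FGF19+MYC tumors at 4.35, 4.59, 3.46, 3.17 and 5.10 CPM. The sgTrp53+MYC tumors lay wholly above livers and FGF19+MYC tumors, with a log2 fold change against livers of 1.28 (SE 0.29, adjusted p = 0.000671, quasi-likelihood test), whereas the other tumors together stood at 0.56 (adjusted p = 0.0573). Cxcl14 fell by 1.76 (adjusted p = 0.0129, quasi-likelihood test) and 2.18 (adjusted p = 0.012) on the log2 scale, and under total counts both calls were lost (adjusted p = 0.187 and 0.102). In the filter it reached 1 CPM in 3 livers, 2 Aldafermin+MYC, 0 FGF19+MYC and 1 sgTrp53+MYC libraries, which favors a fall. Cxcl13, the B cell attractant of lymphoid follicles, did not pass the filter, yet its livers at 3.08, 1.65, 5.34, 1.02 and 2.47 CPM did not overlap with any tumor, the highest of which held 0.231 CPM. In the fit without the filter it stood at -4.74 (adjusted p = 1.11e-05, quasi-likelihood test) and -5.29 (adjusted p = 9.67e-05). B cell markers summed to 3.55 to 8.33 CPM in livers and at most 2.34 CPM in tumors, and their part in it was not tested.

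Another 5 tested members were called in neither comparison with livers. Cx3cl1, the membrane-bound ligand fractalkine, stood at 0.39 and 0.50 on the log2 scale, and its monocyte receptor Cx3cr1 at 0.74 and -0.25. Ccl22, a dendritic cell product, stood at 1.05 and 0.87, and Ccr7, which leads dendritic cells and T cells to lymph nodes, at 0.74 and 0.60. Cxcl16, the ligand of CXCR6, stood at -0.67 (adjusted p = 0.0691, quasi-likelihood test) and -0.68 (adjusted p = 0.118), and 84.8% of its exon bases overlap genes on the opposite strand.

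The question whether tumors with an FGF19 agonist differ from those with a Trp53 guide gave few calls among chemokines. Of the 28 tested members 2 were called, both lower in Aldafermin+MYC and FGF19+MYC tumors, against 23.7% of all genes (11.6% higher and 12.1% lower). Cxcl12 was lower by a log2 fold change of -1.09 (SE 0.24, 95% interval -1.59 to -0.60, adjusted p = 0.00284, quasi-likelihood test), with 36.1 CPM ± 11.6 (SD, n = 5) in Aldafermin+MYC, 34.9 ± 15.2 in FGF19+MYC and 75.7 ± 26.8 in sgTrp53+MYC tumors. The groups overlapped through the fourth sgTrp53+MYC tumor, at 35.3 CPM. Leaving out any 1 library gave -1.27 to -0.93. Ccl25 was lower by -0.72 (SE 0.24, adjusted p = 0.0358, quasi-likelihood test), and by -0.32 (adjusted p = 0.236) without the first sgTrp53+MYC library. Ccl25 shares 4.8% of its exon bases with a gene on the opposite strand. Cxcl10 was not called at 1.36 (SE 0.57, adjusted p = 0.0904), but was without the third sgTrp53+MYC library (2.16, adjusted p = 0.0139) and with DESeq2 (1.34, adjusted p = 0.0335). Ccl7 was not called at -0.48, but stood at -1.48 (adjusted p = 0.0434, quasi-likelihood test) without the third Aldafermin+MYC library. Ccl9 was not called at 1.07 (adjusted p = 0.102, same test). It was called by that test without the first sgTrp53+MYC library (1.84, adjusted p = 0.00458) and with GC and length offsets (1.47, adjusted p = 0.017). All of these values lie across the 2 deposited tables.

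Between Aldafermin+MYC and FGF19+MYC tumors no member was called by edgeR's quasi-likelihood test, against 0% of all genes, and 8 members had an unadjusted p under 0.05, against 7.31% of all genes. Without the third Aldafermin+MYC library, 4 members did, and the share of all genes was not counted for that fit. DESeq2 and edgeR's likelihood ratio test each called 1 member, against 0.67% and 0.412% of all genes. It was Ccl11, whose values did not overlap: its lowest Aldafermin+MYC tumor held 0.846 CPM and its highest FGF19+MYC tumor 0.546 CPM. In the filter Ccl11 reached 1 CPM in 5 Aldafermin+MYC, 0 FGF19+MYC and 2 sgTrp53+MYC libraries. It thus entered mainly through the group where it is high, which favors a difference. The FGF19+MYC tumors held 3, 15, 2, 1 and 7 counts of it, and the share of all genes without overlap was not counted. The log2 fold change of Ccl11 was 2.71 (SE 0.66, 95% interval 1.34 to 4.09, adjusted p = 0.18), with 2.40 to 3.43 on leaving out any 1 library, and adjusted p-values of 0.0207 by DESeq2 and 0.00953 by the likelihood ratio test. Cxcl11 stood at -2.29 (95% interval -3.81 to -0.76, adjusted p = 0.377, quasi-likelihood test). Cxcl11 entered the filter through livers and FGF19+MYC tumors only, which favors this difference. For Cxcl12 the difference was 0.05, with an interval of -0.55 to 0.64, and for Cxcl10 0.05, with an interval of -1.23 to 1.34. The intervals of Cxcl12 and Cxcl10 leave room for changes of either sign, so a missed threshold does not show that both agonists act alike on these genes.

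The size and sign of several of these differences changed without the third Aldafermin+MYC library. In it Ccl7 was 15.5 times the median of the other 4, Ccr1 11.4 times, Ccl6 9.41 times, Ccl2 8.35 times and Cxcl10 6.03 times, whereas Cxcl9 was 0.766 times, Cxcl12 0.762 times and Ccl25 0.696 times that median. With it, 24 of the 28 tested members had a positive difference from FGF19+MYC tumors and the median was 0.91 on the log2 scale. Without it, 18 were positive, the median was 0.14, and the differences of Ccl2 and Ccl6 went from 1.08 and 1.00 to -0.36 and 0.02. That of Ccl11 stayed at 2.50.

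**Figure D4:**
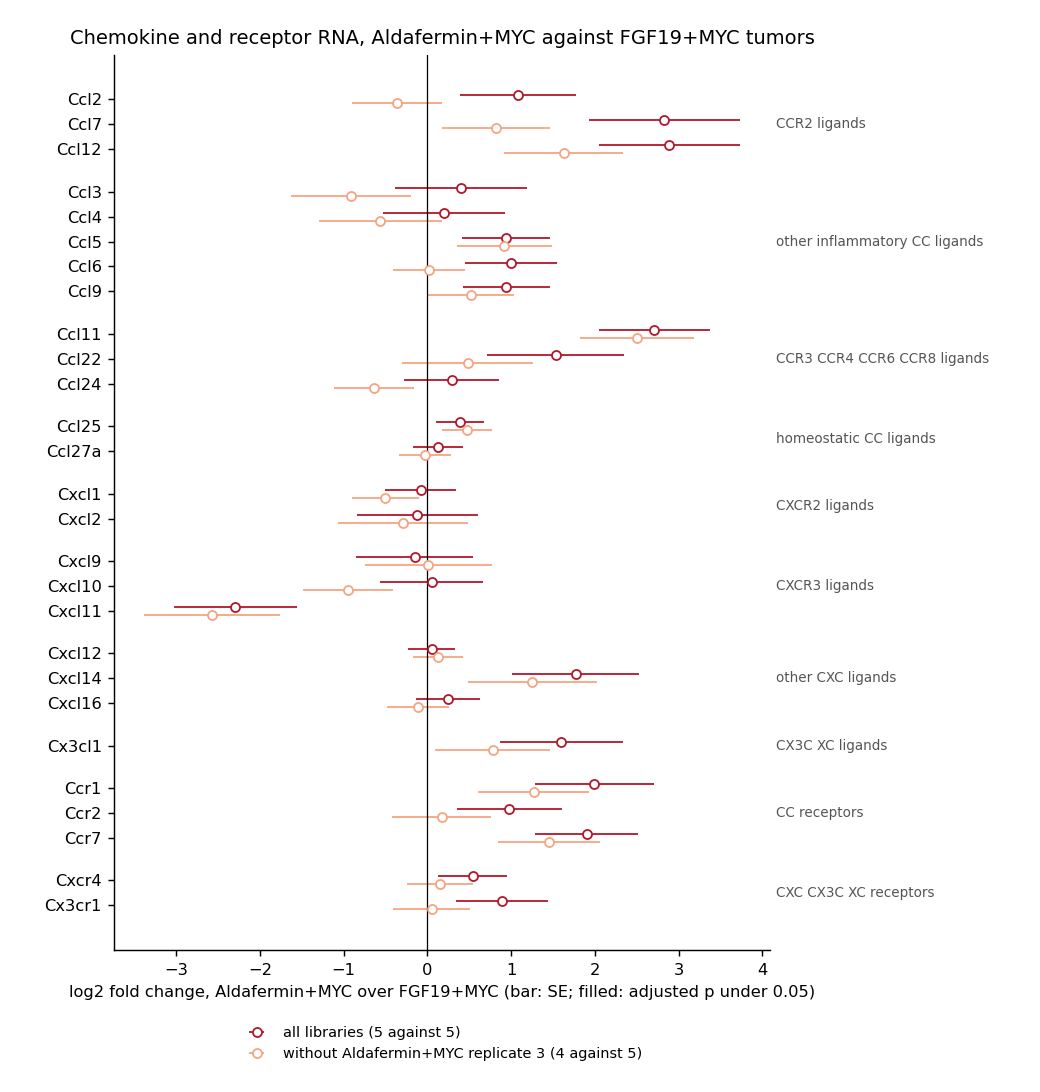
Log2 fold change of Aldafermin+MYC over FGF19+MYC tumors (points; bars are the SE) for 27 of the 28 tested members, with all 5 and without the third Aldafermin+MYC library. Ccl2 moved from 1.08 to -0.36, while Ccl11 stood at 2.71 and 2.50.

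Genes that act around the receptors changed in both directions. Of 11 atypical receptors and related factors, 7 were tested, and 3 rose and 2 fell against livers in both comparisons. Mif, a cytokine that also binds CXCR4, rose by 1.97 and 1.44, and Ackr2, a scavenger of inflammatory CC ligands, went down by -1.96 and -1.81, as did Dpp4, a peptidase that cleaves CXCL10 and CXCL12, by -1.86 and -1.47. All 18 signalling genes were tested, and 7 rose and 1 fell in Aldafermin+MYC and FGF19+MYC tumors, among them Gnb1, a G protein subunit, at 1.04, and Rgs1, a brake on chemokine receptors, at 1.39. In sgTrp53+MYC tumors 6 rose and 1 fell. Of 17 NF-κB and cytokine genes, 13 were tested. None rose, and 6 fell in Aldafermin+MYC and FGF19+MYC tumors and 5 in sgTrp53+MYC tumors, among them Irf1, an interferon-induced transcription factor, at -1.06 and -1.21. The counts of these lists stand beside 73.7% and 69.9% of all genes called.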

How the data were processed

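RNA of single tumors and livers, 20 libraries, was sequenced. According to the methods and labels, the authors made TruSeq stranded mRNA libraries, read 150 bp paired ends, aligned them with HISAT2 to mm39 and counted them with htseq-count on RefSeq genes. The values deposited by the authors are these raw counts, not normalized. The strand setting of the counting is not given in the sources used here. All sample columns were used (0 left out), and 5 summary lines were removed.

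Counts were normalized by TMM, and 14333 genes with 1 CPM of total counts in at least 5 libraries were tested with edgeR 4.0.16 (limma 3.58.1, R 4.3.3) in 1 quasi-likelihood model of the 4 groups, with Benjamini-Hochberg adjusted p under 0.05. DESeq2 1.42.0, the likelihood ratio test, other size factors and filters, fewer groups, a replicate block, GC and length offsets and each library left out were alternatives. Total counts, and leaving out 2 libraries together, were added after seeing the data. The models were also tested on simulated data. Floors were 3 counts and cover counting error only. Replicates are tumors of separate mice by the methods, which the labels do not state; p-values measure the spread between these samples.

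The 8 called members with the smallest adjusted p in each comparison, and their ligand or receptor partners, were described by rule. Their values were given for every sample or as a range. Ccl2, Ccl3, Ccl4, Ccl5, Ccl6, Ccl7, Ccl8, Ccl24, Cxcl1, Cxcl9, Cxcl13, Cxcl14, Ccr2 and Ccr3 were named further after their values were seen. The values of 1 tested member and 1 listed gene are not reported here. Members, lists and tests were chosen with earlier results of these data known. Levels between genes were compared per kb of the canonical transcript of GENCODE M39 on GRCm39, which also gave coordinates.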

Additional observations from a re-analysis of the deposited data

Results flagged for a closer look

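Groups of 5 libraries numbered 92, from 23 of the genes described, 10 of them chosen after their values were seen. In 19 groups the highest library stood apart, by a gap to the next over 0.71 of the range (Dixon's rule). The nominal rate of that rule, about 1 in 20 groups or 4.6, holds for normally distributed values. CPM values are skewed and the groups share libraries, so that 19 and 4.6 do not test for an excess. The third Aldafermin+MYC library stood apart in 6 genes, with 6.43 CPM of Ccl12, 175 CPM of Cxcl10, 26.3 CPM of Ccl2, 17.9 CPM of Ccl7, 17.4 CPM of Ccl8 and 1.97 CPM of Ccl24. The fourth held 14.7 CPM of Cxcl9. Of FGF19+MYC tumors, the first stood apart with 1.67 CPM of Ccr3, the second with 0.801 CPM of Ccl8 and the fifth with 61.2 CPM of Cxcl12. Of sgTrp53+MYC tumors, the first stood apart with 15.4 CPM of Ccl25, 31.7 CPM of Ccl9 and 0.231 CPM of Cxcl13, the second with 5.47 CPM of Cxcr2, and the third with 60.5 CPM of Cxcl10 and 31.4 CPM of Cxcl9. In livers these were 0.43 CPM of Ccl8 in the first, 0.0442 CPM of Ccl12 in the third and 0.159 CPM of Ccl11 in the fifth, each resting on few reads.

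The change from liver in Aldafermin+MYC and FGF19+MYC tumors differed from that in sgTrp53+MYC tumors for Cxcl12, by -1.09 on the log2 scale, and for Ccl25, by -0.72, in edgeR's quasi-likelihood test of the difference.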

How the results depend on the processing

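The members called in the comparisons of Aldafermin+MYC with FGF19+MYC tumors, of both with sgTrp53+MYC tumors, of both with livers and of sgTrp53+MYC tumors with livers numbered 0, 2, 19 and 18. In the first, DESeq2 and the likelihood ratio test each called 1. In the second, a model of only the compared groups called 1, and 2772 genes in all. With at least 5 CPM in 5 libraries, which left 10 members to test, the third called 8 and the fourth 7, and 8739 and 8343 genes in all. Leaving out 1 library at a time gave 0 to 0, 1 to 3, 18 to 22 and 16 to 19. Over all genes these fits called 0 to 29, 2497 to 3777, 10005 to 10837 and 9473 to 10207. With the replicate number as a block the counts were 0, 3, 20 and 19, and 0, 3120, 10544 and 9981 over all genes. The numbers belong to different mice and did not pair the samples: over 30 pairs the correlation of deviations ran from -0.33 to 0.33, and own numbers correlated best in 9 of 60 cases. Under total counts, an alternative added after the data were seen, in which the median of all genes lay at 0.94 and 0.95 in the comparisons with livers, these called 23 and 20. Over all genes they called 11392 and 10957. Of 39 results for single members, 34 kept their direction and side of the threshold in every setting run for them and none reversed. GC and length offsets were not run for the comparison of Aldafermin+MYC and FGF19+MYC tumors with livers, and Cxcl11 dropped out under some filters and left-out libraries. The others were Ccl25 against sgTrp53+MYC tumors (lost in 8 settings), Cxcl14 under total counts, and Ccl2 and Cxcr4 in sgTrp53+MYC tumors against livers under GC and length offsets, Cxcr4 also on leaving out single libraries. The causes were not tested. Members under about 1 CPM rest on few reads, which limits what could be detected.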
